A study of Arabidopsis thaliana with 12 samples.

Results

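The UDP-glycosyltransferases named UGT are described here across leaf arrays of Arabidopsis thaliana. A probe set was taken as a member when the array annotation listed exactly 1 gene for it and the symbol of that gene began with UGT, leaving out UGT78D2 and UGT74B1. The rule gave 45 probe sets of 45 genes, out of 13513 probe sets with 1 listed gene and 22746 tested in all. The members fell into 20 subfamilies by number and letter of the symbol (UGT71B, UGT71C and so on) and 11 numbered families. Membership rested on names and used no measured value, though the rule was set with earlier results of these data known. A further 3 probe sets that list a UGT together with another gene were left out, because their signal cannot be assigned to 1 gene.

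UGT enzymes move a sugar, usually glucose, from a UDP-sugar to a small acceptor molecule. In plants the acceptors include hormones, flavonols, monolignols and other phenolics, sterols and foreign compounds, and the sugar commonly makes them more soluble, inactivates them or marks them for storage in the vacuole. Many UGT genes stand in rows of close copies, so that neighbours in the genome often belong to 1 subfamily.

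Leaf RNA was hybridised to Affymetrix ATH1 arrays, 12 in all. Wild type plants of accession Col-0 and plants of the insertion line des1-1 (SALK_103855, Col-0 background), which carries a lesion in the gene for the cysteine desulfhydrase DES1, grew in soil for 20 days. They were then watered for 10 days with plain water or with a Na2S solution, for which the labels give 200 mM, so all leaves came from plants of 30 days. Crossing genotype with watering gave 4 groups of 3 arrays each, called biological replicates in the design text. A single insertion line was used with no second allele, and the untreated plants had water without sodium, so neither other lesions of the line nor the sodium can be told apart from loss of DES1 or from sulfide.

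Values are log2 levels from robust multi-array average (RMA), a normalization that brings arrays to a common distribution, as deposited. Array medians lay between 5.71 and 5.80, and arrays within a group correlated at 0.9929 to 0.9975 across probe sets. The leaf label was checked on the matched leaf markers, 4 of 8 listed: PSBW, RCA, LHCB4.1 and PSAN read between 12.34 and 14.55 on all arrays. Some markers of other tissues and stages moved with the groups. The root list had 2 of 5 markers matched: PYK10, a root-enriched beta-glucosidase, read 6.49 to 6.99 in untreated wild type and 3.26 to 3.70 on all other arrays, while EXPA7 read 3.52 to 4.25 throughout. Of 3 senescence markers 2 were matched: SAG29 read 10.67 to 11.24 in untreated des1 and 5.01 to 6.50 elsewhere, and WRKY53 read 5.71 to 5.86 and 4.26 to 5.30. The division markers PRL and AUR1, 2 of 4 listed, read 4.88 to 5.27 in untreated des1 and 5.99 to 7.32 elsewhere. Between the untreated genotypes both stomatal markers, FMA and SPCH, were lower in des1 (-0.34 and -0.60), as were PSBW, LHCB4.1 and PSAN (-0.33, -0.64 and -0.49), while RCA was higher (0.32). Of 4 flower markers 0 were matched. A marker or listed gene counts as matched where a probe set lists it alone; 8730 tested probe sets have no gene listed here, so an unmatched gene is not thereby shown to be unmeasured. The part of these differences in the UGT values was not tested. In RNA of whole leaves, fewer cells of a type and less RNA per cell cannot be told apart.

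The members spanned a wide range of levels. Their means over the 12 arrays ran from 3.26 for UGT76E12 to 10.91 for UGT88A1, against a median of 5.78 over all tested probe sets. Only 16 of the 45 stood at or above that median. Of the rest, 14 were dim in at least 1 group, which here means below the 25th percentile of every array of the group (3.69 to 3.90), and 5 of these (UGT71C1, UGT73C2, UGT76E1, UGT76E12 and UGT84B2) were dim in all 4. The spread between replicates was small, with a median SD of 0.125 over members and groups and a largest SD of 0.536, for UGT73B1 in treated wild type.

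Of the 45 members, 25 passed limma's test at an adjusted p of 0.05 in at least 1 of the 4 comparisons between 2 groups. In untreated des1 15 were higher and 8 lower than in untreated wild type, 51.1% of the members, where 44.7% of all probe sets passed (22% higher and 22.6% lower). Na2S went with 11 higher and 8 lower in wild type (42.2%, against 30.4% of all probe sets, 15% higher and 15.4% lower), and with 5 higher and 14 lower in des1 (42.2%, against 37.1%, 17.5% higher and 19.6% lower). Under Na2S the genotypes differed in 1 member, which was lower in des1 (2.22%, against 1.4% of all probe sets, 0.585% higher and 0.813% lower). These shares are those of a family with many dim members. Among the 16 members at or above the median level, 14 passed between the untreated genotypes, where 65.2% of all probe sets of such level did, and 12 passed with Na2S in wild type (46.5%) and 11 in des1 (55.4%). The median difference of the members was 0.12 between the untreated genotypes, 0.10 with Na2S in wild type and -0.03 with Na2S in des1, beside 0.01, 0.03 and 0.02 over all probe sets.

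**Figure D1:**
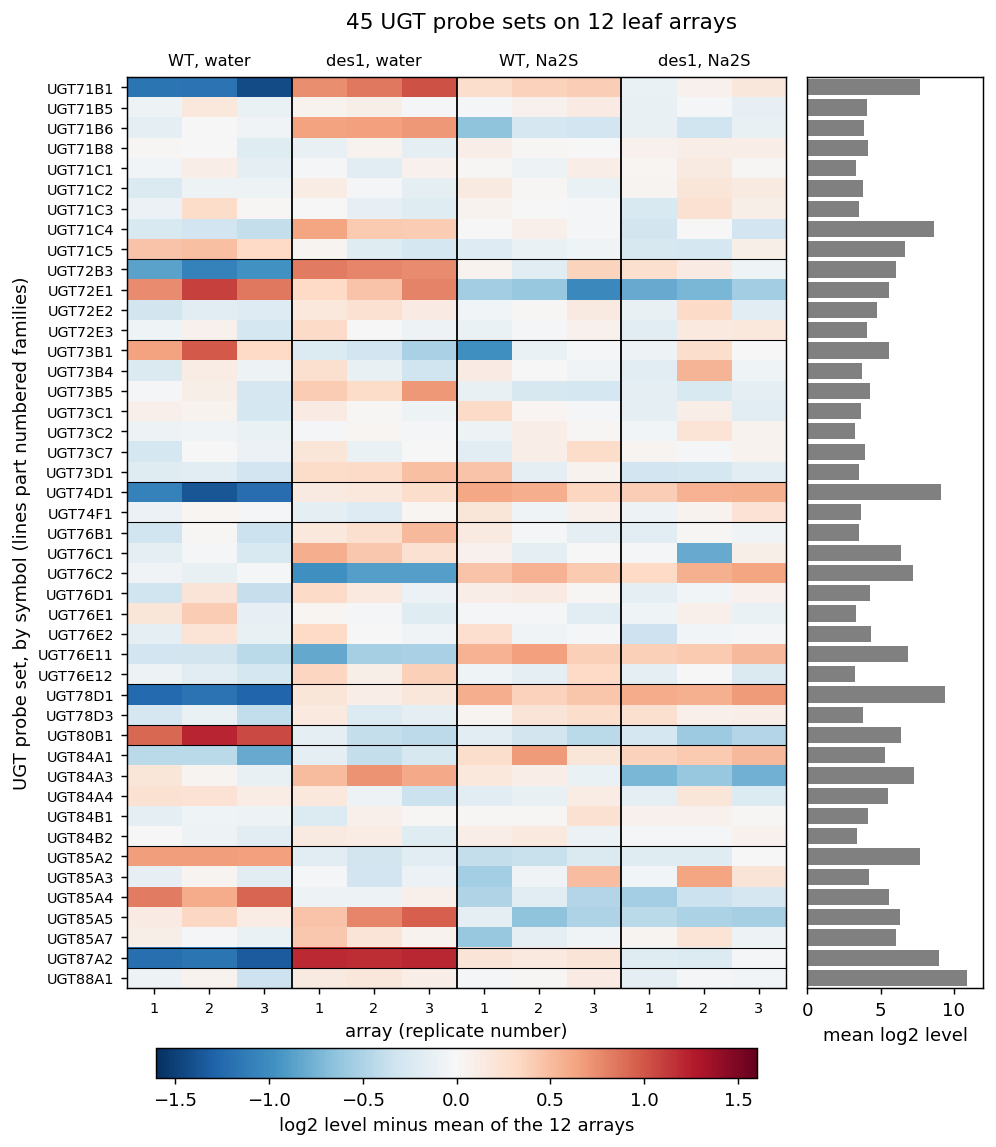
Each row is 1 of the 45 UGT probe sets, ordered by symbol, and each column 1 of the 12 arrays, grouped by genotype and watering. Colour is the log2 level minus the row's mean over the 12 arrays, and the bars at the right give that mean. UGT87A2, UGT71B1 and UGT72B3 are lowest in untreated wild type and highest in untreated des1, while UGT80B1 and UGT85A2 are highest in untreated wild type.

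UGT87A2 (AT2G30140), which is linked to flowering time and abiotic stress tolerance, moved most. It read 7.78, 7.81 and 7.65 in untreated wild type, 10.18, 10.16 and 10.19 in untreated des1, 9.19, 9.14 and 9.19 in treated wild type, and 8.79, 8.76 and 8.95 in treated des1. No group overlapped another. Untreated des1 exceeded untreated wild type by 2.43 ± 0.09 on the log2 scale (limma SE, n = 3 per group), or 5.39-fold, with an adjusted p of 4.64e-13. Na2S went with a rise of 1.43 ± 0.09 in wild type (adjusted p = 1.39e-09) and a fall in des1 (-1.34 ± 0.09, adjusted p = 3.02e-09).

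UGT71B1 (AT3G21750) had the same order of group means. Its levels were 6.55, 6.54 and 6.29 in untreated wild type, 8.47, 8.57 and 8.74 in untreated des1, 8.00, 8.09 and 8.12 in treated wild type, and 7.62, 7.79 and 7.90 in treated des1. The groups did not overlap. The untreated genotypes differed by 2.13 ± 0.11, 4.39-fold (adjusted p = 2.43e-11). The rise with Na2S in wild type was 1.61 ± 0.11 (adjusted p = 2.47e-09), and the change in des1 was -0.82 ± 0.11 (adjusted p = 1.03e-05).

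UGT72B3 (AT1G01420) is a close relative of GT72B1, which conjugates monolignols and foreign compounds. It read 5.17, 4.94 and 5.06 in untreated wild type, 6.85, 6.81 and 6.78 in untreated des1, 6.08, 5.84 and 6.38 in treated wild type, and 6.28, 6.15 and 5.96 in treated des1. The treated groups overlapped each other and lay between the untreated groups. The untreated genotypes differed 3.38-fold (1.76 ± 0.13, adjusted p = 2.05e-09). With Na2S it rose by 1.04 ± 0.13 in wild type (adjusted p = 3.64e-06) and fell in des1 (-0.68 ± 0.13, adjusted p = 0.000299). GT72B1 itself (AT4G01070), a UGT by its RefSeq synonym only, averaged 9.16, 11.02, 10.53 and 10.47 in the same order of groups, a difference of 1.86 between the untreated genotypes (adjusted p = 6.38e-11).

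Another pair was low in untreated wild type and high in each of the remaining groups. UGT74D1 (AT2G31750), which glucosylates auxins, read 8.05, 7.77 and 7.92 in untreated wild type, 9.28, 9.31 and 9.42 in untreated des1, 9.75, 9.72 and 9.48 in treated wild type, and 9.53, 9.69 and 9.70 in treated des1. It rose 2.68-fold in untreated des1 (1.42 ± 0.11, adjusted p = 4.02e-09) and 3.33-fold with Na2S in wild type (1.74 ± 0.11, adjusted p = 6.56e-10). In des1 the further rise with Na2S was 0.30 ± 0.11 (adjusted p = 0.0352), a call lost on leaving out des1 water array 1 or 2, or des1 Na2S array 2 or 3 (highest adjusted p 0.115) and with the replicate number as a block (adjusted p = 0.0533).

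UGT78D1 (AT1G30530) attaches rhamnose to flavonols. Its levels were 8.13, 8.19 and 8.10 in untreated wild type, 9.57, 9.48 and 9.55 in untreated des1, 9.96, 9.74 and 9.82 in treated wild type, and 9.97, 9.94 and 10.05 in treated des1. Only the treated groups overlapped. The gene rose by 1.39 ± 0.09 in untreated des1 (2.63-fold, adjusted p = 8.62e-10), by 1.70 ± 0.09 with Na2S in wild type (3.25-fold, adjusted p = 1.45e-10) and by 0.45 ± 0.09 with Na2S in des1 (adjusted p = 0.000853). Its relative UGT78D3, which attaches arabinose to flavonols, stayed near the bottom of the range with group means of 3.57 to 4.01. It passed only with Na2S in wild type (adjusted p = 0.00775), rising by at least 1.17-fold, counting the dim untreated level as each array's 25th percentile. With Na2S in des1 the difference was 0.21 ± 0.12 (adjusted p = 0.183). That difference passed with array weights (adjusted p = 0.0175) and without des1 water replicate 1 (adjusted p = 0.0396). The interaction of genotype and Na2S did not pass (-0.23 ± 0.17, adjusted p = 0.334).

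**Figure D2:**
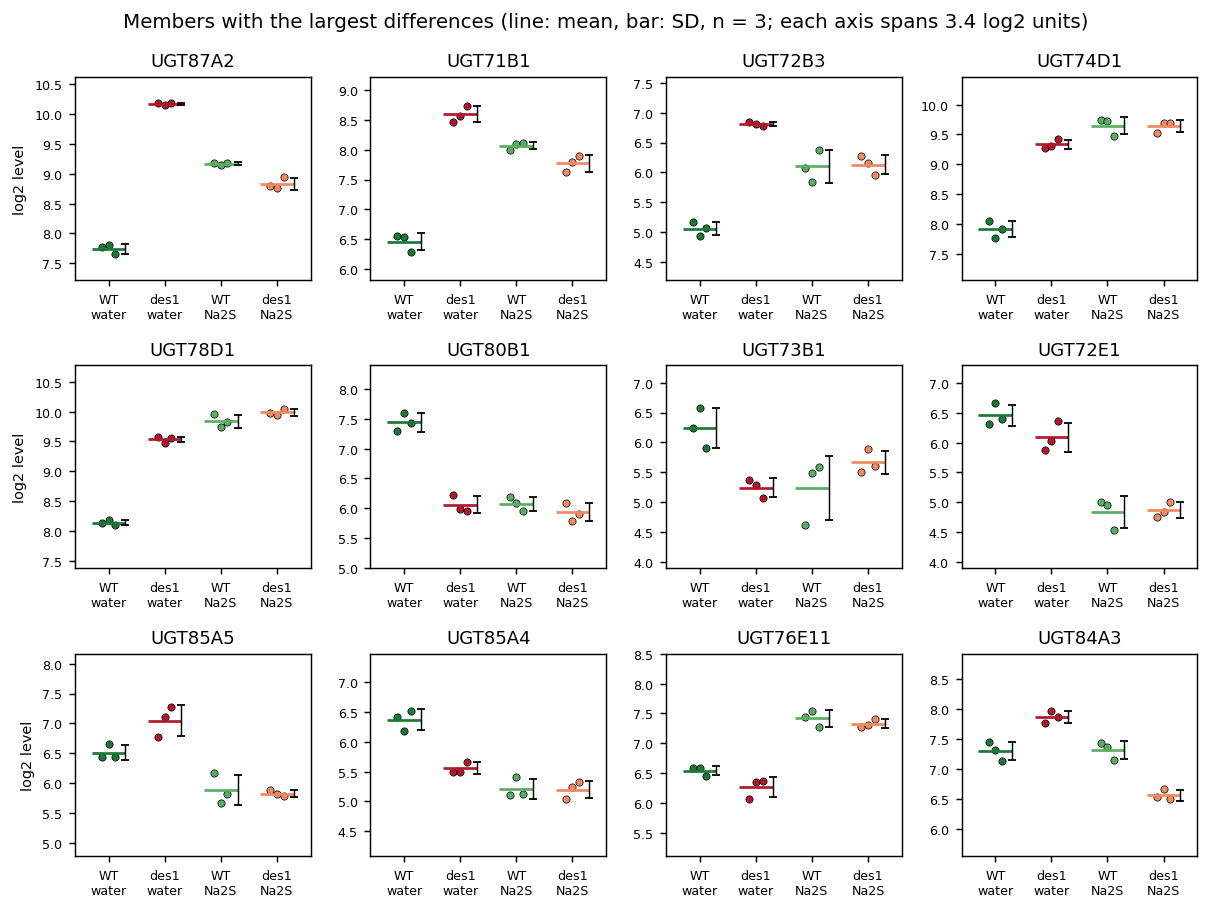
Each panel shows 1 UGT probe set, with a point per array, a line at the group mean and a bar of 1 SD (n = 3); the vertical axis is the log2 level and spans the same length in all panels. UGT87A2 runs from 7.65 to 10.19, UGT80B1 falls from untreated wild type to the other 3 groups, and UGT84A3 is lowest in treated des1.

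A smaller set was high in untreated wild type and low in the other groups. UGT80B1 (AT1G43620), a sterol glucosyltransferase known from the seed coat mutant transparent testa 15, read 7.29, 7.60 and 7.43 in untreated wild type, 6.23, 5.99 and 5.96 in untreated des1, 6.19, 6.08 and 5.95 in treated wild type, and 6.09, 5.79 and 5.91 in treated des1. Untreated wild type stood clear of the other 3 groups, which overlapped one another. The gene fell 2.60-fold in untreated des1 (-1.38 ± 0.12, adjusted p = 1.83e-08) and 2.58-fold with Na2S in wild type (-1.37 ± 0.12, adjusted p = 4.56e-08). In des1 the change with Na2S was -0.13 ± 0.12 (adjusted p = 0.445). The other sterol glucosyltransferase gene, SGT (AT3G07020, UGT80A2 by its RefSeq synonym), differed by -0.08 ± 0.10 between the untreated genotypes (adjusted p = 0.615).

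UGT85A2 (AT1G22360) read 8.39, 8.39 and 8.38 in untreated wild type, 7.54, 7.43 and 7.55 in untreated des1, 7.34, 7.37 and 7.49 in treated wild type, and 7.53, 7.53 and 7.71 in treated des1. It fell by 0.88 ± 0.10 in untreated des1 (adjusted p = 4.04e-07) and by 0.99 ± 0.10 with Na2S in wild type (adjusted p = 2.00e-07). UGT85A4 (AT1G78270), of the same subfamily, read 6.42, 6.18 and 6.52, then 5.50, 5.50 and 5.67, then 5.11, 5.41 and 5.12, and 5.04, 5.24 and 5.32 in the same order of groups. Both genes thus had untreated wild type above all other arrays. UGT85A4 fell by 0.82 ± 0.12 in untreated des1 (adjusted p = 1.61e-05) and by 1.16 ± 0.12 with Na2S in wild type (adjusted p = 4.70e-07); its fall with Na2S in des1 (-0.36 ± 0.12, adjusted p = 0.0255) was lost without des1 water replicate 3 (adjusted p = 0.107) or des1 Na2S replicate 1 (adjusted p = 0.122).

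UGT73B1 (AT4G34138), of a subfamily that acts on flavonoids in vitro, was more variable. It read 6.24, 6.57 and 5.91 in untreated wild type, 5.37, 5.28 and 5.07 in untreated des1, 4.61, 5.49 and 5.58 in treated wild type, and 5.51, 5.88 and 5.60 in treated des1. The treated groups overlapped, and 1 treated wild type array lay far below its group. The gene fell 2.0-fold in untreated des1 (-1.0 ± 0.21, adjusted p = 0.000571) and 2.02-fold with Na2S in wild type (adjusted p = 0.000866). The low array enlarges the fall in wild type. UGT71C5 (AT1G07240), which glucosylates abscisic acid, had means of 7.10 ± 0.09 (SD, n = 3) in untreated wild type and of 6.54 ± 0.17 in untreated des1, 6.55 ± 0.07 in treated wild type and 6.53 ± 0.21 in treated des1. It fell by 0.56 ± 0.12 in untreated des1 (adjusted p = 0.000679) and by 0.55 ± 0.12 with Na2S in wild type (adjusted p = 0.00143).

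Of the 7 members listed as acting on monolignols, their aldehydes, hydroxycinnamates and other phenylpropanoids, 3 (UGT71C1, UGT72E3 and UGT84A4) passed in no comparison. Of the 7, 2 were higher and 1 lower in untreated des1, 1 higher and 1 lower with Na2S in wild type, and 1 higher and 2 lower with Na2S in des1. Over all probe sets 44.7%, 30.4% and 37.1% passed in the same order of comparisons. UGT72E1 (AT3G50740), which glucosylates coniferyl and sinapyl aldehyde, followed the watering. It read 6.32, 6.66 and 6.40 in untreated wild type and 5.88, 6.02 and 6.36 in untreated des1, against 5.01, 4.96 and 4.53 in treated wild type and 4.75, 4.83 and 5.01 in treated des1. All 6 treated arrays lay below all 6 untreated ones. Na2S went with a fall of 3.09-fold in wild type (-1.63 ± 0.15, adjusted p = 7.84e-08) and of 2.33-fold in des1 (-1.22 ± 0.15, adjusted p = 2.46e-06). The difference of -0.37 ± 0.15 between the untreated genotypes (adjusted p = 0.0461) lost its call in both rescalings, with trended robust variance, with array weights, over probe sets of 1 gene, with a replicate block (adjusted p = 0.0562) and without any 1 of 8 arrays: wild type water 2 or 3, des1 water 1 or 2, wild type Na2S 2, and des1 Na2S 1, 2 or 3 (adjusted p up to 0.196). The monolignol glucosyltransferase UGT72E2 rose by 0.41 ± 0.12 in untreated des1 (adjusted p = 0.00824), and UGT72E3, which shares that activity, differed by 0.17 ± 0.13 (adjusted p = 0.349) at group means of 3.96 to 4.13.

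The UGT84A genes, whose enzymes make glucose esters of hydroxycinnamates, differed among themselves. UGT84A1 (AT4G15480) averaged 4.74 ± 0.21 (SD, n = 3) in untreated wild type, 5.03 ± 0.12 in untreated des1, 5.68 ± 0.26 in treated wild type and 5.73 ± 0.07 in treated des1. It rose with Na2S in wild type (0.95 ± 0.13, adjusted p = 1.94e-05) and in des1 (0.70 ± 0.13, adjusted p = 0.000363). UGT84A3 (AT4G15490), its neighbour, read 7.45, 7.31 and 7.14 in untreated wild type, 7.77, 7.98 and 7.87 in untreated des1, 7.43, 7.37 and 7.15 in treated wild type, and 6.53, 6.66 and 6.49 in treated des1. Both wild type groups overlapped, untreated des1 lay above them and treated des1 below. UGT84A3 fell 2.48-fold with Na2S in des1 (-1.31 ± 0.11, adjusted p = 3.64e-08) and differed by 0.02 ± 0.11 with Na2S in wild type (adjusted p = 0.937). UGT84A4 passed in none of the comparisons, with group means of 5.42 to 5.70.

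Genes of the same routes were looked up through the probe sets with 1 listed gene, and few were matched. Of 19 listed genes of monolignol and sinapate synthesis 2 were matched, and 1 of them rose in untreated des1: ALDH2C4, which makes sinapate and ferulate, by 0.60 ± 0.10 (adjusted p = 7.63e-05). With Na2S in wild type both rose, ALDH2C4 by 0.42 (adjusted p = 0.00375) and the hydroxycinnamoyl transferase gene HCT by 0.67 (adjusted p = 5.15e-05). Of 23 listed genes of UDP-sugar supply only USP, a UDP-sugar pyrophosphorylase, was matched; it fell by 0.37 ± 0.09 in untreated des1 (adjusted p = 0.00288). Among 18 listed detoxification partners only GSTU25 was matched, at group means of 3.0 to 3.13, and it did not pass in any comparison.

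The cytokinin N-glucosyltransferases UGT76C1 and UGT76C2, encoded side by side, differed in opposite directions. UGT76C2 (AT5G05860) read 7.13, 7.07 and 7.16 in untreated wild type, 6.21, 6.31 and 6.30 in untreated des1, 7.64, 7.74 and 7.60 in treated wild type, and 7.50, 7.76 and 7.82 in treated des1. Untreated des1 lay below all other arrays, and the treated groups lay above both untreated ones. The gene fell by 0.85 ± 0.10 in untreated des1 (adjusted p = 1.58e-06) and rose 2.68-fold with Na2S in des1 (1.42 ± 0.10, adjusted p = 4.37e-09) and 1.45-fold in wild type (0.54 ± 0.10, adjusted p = 0.000428). UGT76C1 (AT5G05870) read 6.23, 6.36 and 6.14, then 6.96, 6.81 and 6.63, then 6.45, 6.22 and 6.37, and 6.35, 5.58 and 6.47. It was higher in untreated des1 by 0.56 ± 0.17 (adjusted p = 0.0126), without des1 water replicate 1 by 0.48 (adjusted p = 0.0581). It fell with Na2S in des1 (-0.67 ± 0.17, adjusted p = 0.0047); without the low array, des1 Na2S replicate 2, the fall was -0.39 (adjusted p = 0.0221). The third member that acts on cytokinins, UGT73C1, passed in none of the comparisons at group means of 3.58 to 3.76. Of 12 listed genes of cytokinin turnover 0 were matched.

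Members that act on abscisic acid split as well. Beside UGT71C5, which fell as given above, UGT71B6 (AT3G21780) rose in untreated des1, from 3.78 ± 0.08 (SD, n = 3) to 4.52 ± 0.02 (0.74 ± 0.11, adjusted p = 2.10e-05). It fell by at least 1.62-fold with Na2S in des1, where the treated level of 3.66 ± 0.12 was dim (adjusted p = 6.47e-06). The treated level in wild type was dim too, so the size of the change there is uncertain. In wild type its fall with Na2S (-0.33 ± 0.11, adjusted p = 0.0288) was lost without wild type water replicate 2 or 3 or wild type Na2S replicate 1, the last with a value of -0.22 (adjusted p = 0.155), with arrays centred on their medians (adjusted p = 0.0562), with the compared groups alone (adjusted p = 0.0616) and with array weights (-0.19, adjusted p = 0.0732). UGT71B8 passed nowhere at 4.07 to 4.23. The listed genes of abscisic acid turnover had 1 of 11 matched: BGLU33 fell by 0.58 ± 0.10 in untreated des1 (adjusted p = 6.69e-05) and rose by 1.06 ± 0.10 with Na2S in des1 (adjusted p = 1.04e-07).

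Members that act on salicylate and other benzoates had low levels. UGT76B1, which conjugates isoleucic acid and salicylate in defence, rose by 0.53 ± 0.12 in untreated des1 (adjusted p = 0.00183), at least 1.05-fold from a dim level. Its fall with Na2S in des1 (-0.39 ± 0.12, adjusted p = 0.02), at least 1.02-fold to a dim level, was lost without des1 water replicate 3 (adjusted p = 0.119) or des1 Na2S replicate 1 (adjusted p = 0.0822). UGT74F1, UGT76D1 and UGT71C3 passed in none of the comparisons, with group means of 3.44 to 4.40. Of 13 listed genes of salicylate synthesis and response 0 were matched. Of the auxin-linked members, UGT74D1 is described above and UGT84B1 passed nowhere at 4.08 to 4.27. IAGLU (AT4G15550), an auxin glucosyltransferase without the UGT symbol that was picked after its values were seen, averaged 7.11 in untreated and 8.91 in treated wild type, and 8.96 and 8.83 in des1.

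The pathogen-linked UGT73B5 rose in untreated des1 from 4.24 ± 0.18 (SD, n = 3) to 4.78 ± 0.21 (adjusted p = 0.00106) and fell with Na2S in des1 to 4.13 ± 0.05 (adjusted p = 0.000253). Its neighbour UGT73B4 stood at 3.65 to 3.82 and passed nowhere. The measured UGT73C genes UGT73C1, UGT73C2 and UGT73C7 were all at 3.20 to 4.04 and passed nowhere. UGT73D1, next to UGT73C7, rose in untreated des1 from a dim 3.31 to 3.90 (adjusted p = 0.000879), at least 1.09-fold, and fell again with Na2S in des1 (adjusted p = 0.000773), at least 1.05-fold. Its rise with Na2S in wild type (0.35 ± 0.13, adjusted p = 0.0479) was lost without any 1 array other than wild type Na2S replicate 2, with 0.18 left without wild type Na2S replicate 1 (adjusted p = 0.265). It was also lost with array weights (0.18, adjusted p = 0.136), repeated quantile normalization, the compared groups alone, probe sets of 1 gene and a replicate block (adjusted p = 0.0578).

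The UGT76E subfamily held 1 bright and 3 weak members. UGT76E11 (AT3G46670), linked to flavonoid glucosylation and stress tolerance, read 6.58, 6.59 and 6.46 in untreated wild type, 6.07, 6.35 and 6.37 in untreated des1, 7.44, 7.54 and 7.27 in treated wild type, and 7.27, 7.30 and 7.41 in treated des1. All 6 treated arrays lay above all 6 untreated ones. It rose with Na2S by 0.87 ± 0.11 in wild type (adjusted p = 4.71e-06) and 2.09-fold in des1 (1.06 ± 0.11, adjusted p = 3.81e-07). The difference of -0.28 ± 0.11 between the untreated genotypes (adjusted p = 0.0448) was lost without wild type water replicate 1 or 2, des1 water replicate 1 (then -0.18, adjusted p = 0.21) or any 1 of the des1 Na2S arrays, and with median centring, trended robust variance, the compared groups alone, probe sets of 1 gene or a replicate block (adjusted p = 0.0566). UGT76E12 was dim in all groups, with means of 3.07 to 3.53, so the sizes of its differences between 2 groups are not given. It passed toward des1 between the untreated genotypes (adjusted p = 0.00594), and its call with Na2S in des1, toward water (adjusted p = 0.0176), was lost without des1 water replicate 1 or 3 or des1 Na2S replicate 3 (adjusted p up to 0.0777). UGT76E1 and UGT76E2 passed nowhere.

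UGT85A5 (AT1G22370) fell with Na2S in wild type, as UGT85A2 and UGT85A4 did, but was higher in untreated des1, where those 2 were lower. It read 6.44, 6.65 and 6.43 in untreated wild type, 6.77, 7.10 and 7.27 in untreated des1, 6.16, 5.67 and 5.82 in treated wild type, and 5.88, 5.81 and 5.78 in treated des1. The untreated groups did not overlap, and all treated arrays lay below all untreated ones. It rose by 0.54 ± 0.14 in untreated des1 (adjusted p = 0.00313) and fell with Na2S by 0.62 ± 0.14 in wild type (adjusted p = 0.00163) and 2.33-fold in des1 (-1.22 ± 0.14, adjusted p = 1.12e-06). UGT85A3 and UGT85A7, of the same row of genes, passed nowhere. UGT71C4 (AT1G07250) averaged 8.34 ± 0.07 (SD, n = 3) in untreated and 8.67 ± 0.06 in treated wild type, and 9.13 ± 0.13 in untreated and 8.45 ± 0.17 in treated des1. It rose by 0.80 ± 0.11 in untreated des1 (adjusted p = 6.06e-06) and fell with Na2S in des1 (-0.68 ± 0.11, adjusted p = 5.56e-05); its rise with Na2S in wild type (0.33 ± 0.11, adjusted p = 0.0246) was lost without the third wild type water array (adjusted p = 0.0871) and without the second treated wild type array (adjusted p = 0.0862). The brightest member, UGT88A1, passed nowhere, but its difference between the untreated genotypes (0.26 ± 0.11, adjusted p = 0.0514) gained a call in both rescalings, without dim probe sets, with trended robust variance, with array weights (adjusted p = 0.0099), without wild type water replicate 2 and without wild type Na2S replicate 1. UGT71B5, UGT71C1, UGT71C2 and UGT84B2 also passed nowhere, at 3.26 to 4.11.

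Neighbouring genes were therefore compared side by side. In the gene order of assembly TAIR10.1, used for order only, 17 pairs of members had at most 4 protein-coding genes between them, and these pairs held 29 members. Between the untreated genotypes 1 pair passed in the same direction (UGT71B1 and UGT71B6, both higher in des1) and 4 pairs passed in opposite directions. Those 4 were UGT71C4 up and UGT71C5 down, UGT85A5 up and UGT85A2 down, UGT76C1 up and UGT76C2 down, and UGT76E12 up and UGT76E11 down. The last pair is uncertain on both sides, since UGT76E12 was dim in all groups and the call of UGT76E11 was lost in the settings given above. A further 8 pairs had 1 gene that passed, and 4 pairs had none. With Na2S in wild type 1 pair passed in the same direction and 2 in opposite ones, and with Na2S in des1 1 and 3. Both opposite pairs in wild type, UGT71C4 with UGT71C5 and UGT71B1 with UGT71B6, are uncertain. The calls of UGT71C4 and UGT71B6 there were lost in settings given above. Of the 3 opposite pairs in des1, UGT76E11 with UGT76E12 is uncertain, since UGT76E12 was dim and its call was lost without single arrays. Over all probe sets 44.7%, 30.4% and 37.1% passed in these comparisons, in the same order, so pairs of unrelated genes can pass too. The pair counts were not set against pairs of other genes. The difference within a pair was not tested, pairs share genes, and the signal of 1 probe set may include a close copy, which these data cannot show.

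**Figure D3:**
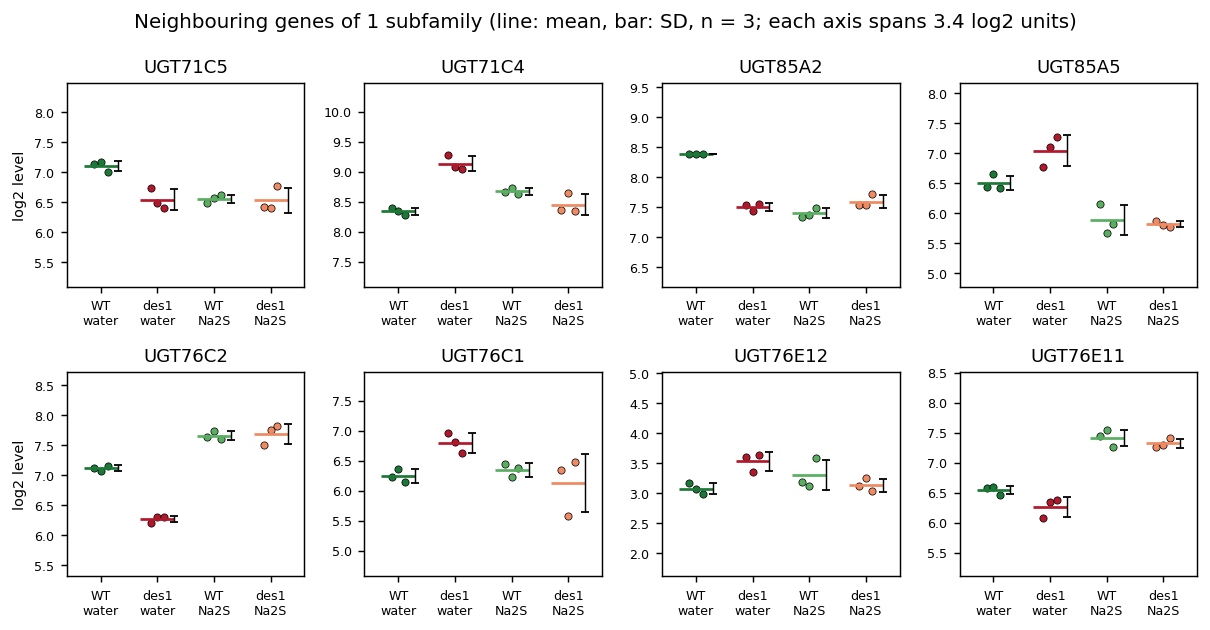
Each panel shows 1 UGT probe set of 4 neighbouring pairs, with a point per array, a line at the group mean and a bar of 1 SD (n = 3); the vertical axis is the log2 level and spans the same length in all panels. From untreated wild type to untreated des1 UGT71C4, UGT85A5, UGT76C1 and UGT76E12 go up, while UGT71C5, UGT85A2, UGT76C2 and UGT76E11 go down; UGT76E12 is dim in all groups.

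By subfamily, no group of 3 or more measured members passed throughout in any comparison. Of those with 2, UGT78D had 2 higher with Na2S in wild type (median 1.07), UGT78D3 from a dim level. UGT76C had 1 higher and 1 lower between the untreated genotypes and with Na2S in des1. Between the untreated genotypes the UGT71B genes had 2 of 4 higher (median difference 0.40), UGT71C 1 higher and 1 lower of 5 (-0.01), UGT85A 1 higher and 2 lower of 5 (-0.05), UGT76E 1 higher and 1 lower of 4 (-0.055), UGT72E and UGT73B each 1 higher and 1 lower of 3 (0.17 and 0.00), and UGT84A 1 higher of 3 (0.30). The lower members of UGT72E and UGT76E were UGT72E1 and UGT76E11, whose calls were lost in settings given above. The higher UGT76E member, UGT76E12, was dim in all groups. With Na2S in wild type UGT85A had 3 of 5 lower (median -0.62), and with Na2S in des1 UGT71B had 2 of 4 lower (-0.48). Of all probe sets 22% were higher and 22.6% lower between the untreated genotypes. With Na2S the shares were 15% higher and 15.4% lower in wild type, and 17.5% and 19.6% in des1. UGT73C and UGT84B had 0 members that passed in these comparisons. At an unadjusted p under 0.05 the members of UGT73C and UGT84B numbered 0 as well, while with array weights UGT73C7 passed with Na2S in wild type (0.34, adjusted p = 0.00493).

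The genotype difference was smaller under Na2S for most members. Its median size was 0.30 under water and 0.06 under Na2S on the log2 scale, beside 0.25 and 0.10 over all probe sets, and it was smaller under Na2S in 36 of the 45 members (80%, against 72.6% of all probe sets). Among the 23 members that passed under water, which the test picked for a large difference there, it was smaller in 22 (95.7%, against 99% of all probe sets that passed). The exception was UGT84A3, higher in untreated des1 by 0.57 ± 0.11 (adjusted p = 0.000317) and 1.69-fold lower in des1 than in wild type under Na2S (-0.76 ± 0.11, adjusted p = 0.000853). It was the only member that passed between the treated genotypes, and it kept that call in every alternative tried. The largest genotype differences under water were small here: UGT87A2 differed by -0.34 ± 0.09 (adjusted p = 0.1), with no overlap of the 3 values of each group, and UGT71B1 by -0.30 ± 0.11 (adjusted p = 0.283), also without overlap. In all, 6 members had no overlap between the treated genotypes (13.3%, against 16.9% of all probe sets). UGT72B3, UGT74D1, UGT78D1 and UGT80B1 differed by 0.03, -0.01, 0.15 and -0.14.

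**Figure D4:**
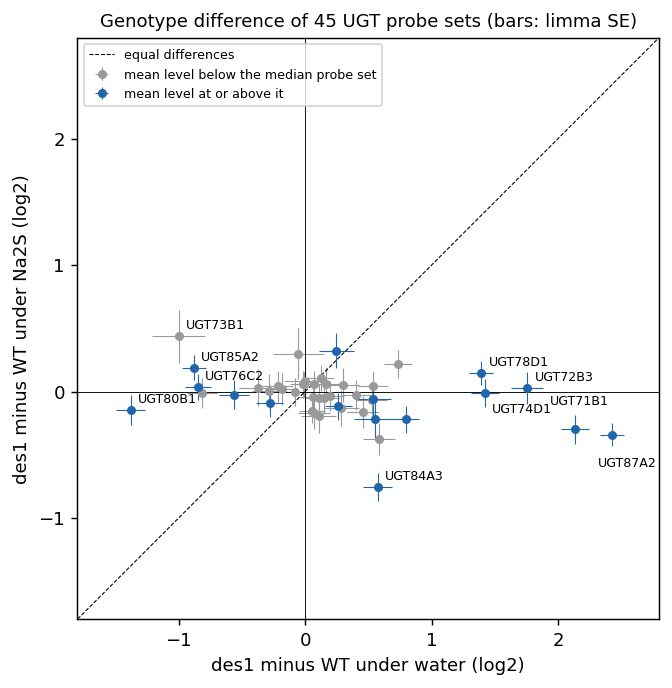
Each point is 1 of the 45 UGT probe sets; the horizontal axis is the log2 difference of des1 minus wild type under water and the vertical axis the same under Na2S, from separate arrays, with bars of 1 limma SE. Points spread from -1.38 to 2.43 along the horizontal axis and lie within -0.76 and 0.44 on the vertical one.

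The difference between these 2 genotype differences, the interaction, passed in 21 members (46.7%, against 37.7% of all probe sets), negative in 15 and positive in 6 (19.1% and 18.6% of all probe sets). The most negative were UGT87A2 (-2.77 ± 0.13, adjusted p = 2.23e-11), UGT71B1 (-2.43 ± 0.16, adjusted p = 9.81e-10), UGT72B3 (-1.73 ± 0.18, adjusted p = 4.56e-07) and UGT74D1 (-1.43 ± 0.15, adjusted p = 6.15e-07). The most positive were UGT73B1 (1.44 ± 0.29, adjusted p = 0.000658), UGT80B1 (1.24 ± 0.17, adjusted p = 9.34e-06), UGT85A2 (1.07 ± 0.13, adjusted p = 4.31e-06) and UGT76C2 (0.88 ± 0.14, adjusted p = 8.16e-05). The size for UGT73B1 is enlarged by its low treated wild type array (4.61, against 5.49 and 5.58), so its place in this order is not settled.

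Among the 25 members that passed in at least 1 comparison, the highest group mean was that of untreated des1 in 13, of untreated wild type in 6 and of a treated group in 6. For untreated des1 that is 52%, where 38.9% of the 12719 probe sets that passed in at least 1 comparison were highest there. Of those probe sets 34.9% were highest in untreated wild type and 26.2% in a treated group. The lowest was that of untreated wild type in 11 (44%, against 33.7%), of untreated des1 in 2 (against 37.9%) and of a treated group in 12 (against 28.5%). These differences in share were not tested. Centring the arrays on their medians kept both the highest and the lowest group in 20 of the 25, and repeated quantile normalization in 24, so the order of group means that lie close is not settled. Of the 4 genes called UGT only by a RefSeq synonym, GT72B1 and SGT are given above, AT5G54010 passed nowhere at 3.53 to 3.80, and UF3GT, an anthocyanin glycosyltransferase, averaged 5.39 in untreated and 4.85 in treated wild type, and 8.65 and 4.61 in des1.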

How the data were processed

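RNA of leaves was measured on 12 arrays. The authors deposited log2 expression values made by RMA with the affy package, per the submitters' processing notes; versions, the joint or separate processing of the arrays and a genome build are not given in the sources used here. RMA compresses differences of dim transcripts and would remove a shift shared by most transcripts. The values were used as deposited, without the 64 control probe sets. Groups and replicate numbers came from the sample titles.

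Group means were estimated from the 12 arrays together in limma 3.58.1 under R 4.3.3 (lmFit and eBayes without trend or robust). Each of 5 comparisons had its own Benjamini-Hochberg adjustment over 22746 probe sets, with a threshold of 0.05. Arrays give no read depth, so their number limits the precision. The fit was tested on simulated data. Samples with the same replicate number did not deviate together, so no pairing was used. Of 18 such pairs 1 was above a correlation of 0.1. Among 36 pairs with other numbers 10 were, up to 0.31, so some arrays of different groups deviated alike.

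Members came from the array annotation, and loci and gene order from a RefSeq table of TAIR10.1; all 45 members matched. Members given array by array passed with a difference of at least 1 on the log2 scale and no overlap of the groups, up to the 6 largest in each direction per comparison, or were among the 4 largest interactions in each direction; UGT76C1 was added beside its neighbour. Other members were named with their subfamily or role. The members, lists and tests were chosen with earlier results of these data known. The alternatives were repeated quantile normalization, median centring, no probe sets below the 40th percentile, trended robust variance, array weights, the compared groups alone, a replicate block, probe sets of 1 gene, RefSeq symbols, and each array left out.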

Additional observations from a re-analysis of the deposited data

Results flagged for a closer look

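In 21 members the genotype difference under Na2S differed from that under water by limma's test of the interaction. It was negative, meaning that des1 stood lower relative to wild type under Na2S than under water, in UGT71B1 (-2.43), UGT71B6 (-0.52), UGT71C4 (-1.02), UGT72B3 (-1.73), UGT72E2 (-0.44), UGT73B5 (-0.50), UGT73D1 (-0.96), UGT74D1 (-1.43), UGT76B1 (-0.59), UGT76C1 (-0.77), UGT76E12 (-0.62), UGT78D1 (-1.25), UGT84A3 (-1.33), UGT85A5 (-0.60) and UGT87A2 (-2.77). It was positive in UGT71C5 (0.54), UGT73B1 (1.44), UGT76C2 (0.88), UGT80B1 (1.24), UGT85A2 (1.07) and UGT85A4 (0.80). UGT76E12 was dim in all groups, and UGT71B6, UGT73D1 and UGT76B1 were dim in some. The sizes of their interactions are therefore uncertain.

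A few of these calls rest on single arrays. That of UGT71C5 was lost without des1 Na2S replicate 3 (0.42, adjusted p = 0.057). That of UGT85A5 was lost without wild type Na2S replicate 1 (-0.46, adjusted p = 0.0551) or des1 water replicate 3 (-0.49, adjusted p = 0.0638). That of UGT73B5 was lost without wild type water replicate 3, des1 water replicate 3, wild type Na2S replicate 1 or des1 Na2S replicate 2 (adjusted p up to 0.0828). That of UGT72E2 was lost without any 1 array other than wild type Na2S replicate 1 and des1 Na2S replicate 2 (adjusted p up to 0.138), with trended robust variance (adjusted p = 0.0827) and over probe sets of 1 gene (adjusted p = 0.0538). UGT76C1 fell to -0.49 without des1 Na2S replicate 2 (adjusted p = 0.0285).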

How the results depend on the processing

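No count of members that passed moved by more than 1.5 times, and no called difference changed sign, under the alternatives tried. Leaving out each array in turn gave 21 to 24 members between the untreated genotypes, 1 to 1 under Na2S, 17 to 19 with Na2S in wild type, 16 to 20 with Na2S in des1 and 19 to 22 for the interaction. With a replicate block the counts were 21, 1, 18, 18 and 21 in the same order, and outside the calls named in the report that block changed none; the replicate numbers are shared between groups as numbers only, since same-numbered arrays did not deviate together. Array weights gave 25, 1, 22, 25 and 24. Of the 20 members that passed in none of the comparisons between 2 groups, 7 gained a call in those comparisons under at least 1 alternative: UGT73C7, UGT74F1, UGT76D1, UGT76E1, UGT84A4, UGT85A3 and UGT88A1. Members that passed elsewhere gained calls as well. These were UGT84A1 between the untreated genotypes, UGT72E2 and UGT76B1 with Na2S in wild type, and UGT72E2, UGT73B1 and UGT78D3 with Na2S in des1. UGT73B1 gained its call with the compared groups alone (adjusted p = 0.0158), array weights (adjusted p = 0.0356) and without wild type Na2S replicate 1 (adjusted p = 0.029). For the interaction, UGT71B5 gained a call with array weights (-0.31, adjusted p = 0.03), and UGT76D1 and UGT88A1 gained one under more than 1 alternative. UGT72E1 gained one without des1 water replicate 3 (adjusted p = 0.0484). Without probe sets below the 40th percentile 21 members were left, of which 18, 1, 16, 14 and 16 passed. The RefSeq symbols chose the same 45 members. Centring arrays on their medians moved the median difference over all probe sets by at most 0.05. Members near the bottom of the intensity range limit what can be seen, since RMA compresses their differences.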
